A study of Mus musculus with 12 samples.

Results

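The 9 genes described here encode the class II molecules of the mouse major histocompatibility complex (MHC) and the proteins that load and control them: the invariant chain (Cd74), the chains of the classical molecules (H2-Aa, H2-Ab1, H2-Eb1), the chains of the peptide exchange factor H2-DM (H2-DMa, H2-DMb1) and of its inhibitor H2-O (H2-Oa, H2-Ob), and the transactivator Ciita. They were chosen by gene name among the probes that are not controls, which gave 15 probes for the 9 genes, of 43020 probes for 29608 gene names on the array. Cortex RNA of adult female mice was compared in 3 groups of 4 mice, each sample being the cortex of 1 mouse. MRL/lpr mice carry the lpr mutation of Fas on the lupus-prone MRL background. Fn14koMRL mice (Fn14ko), by the study's text on the same MRL/lpr background, lack Fn14, the receptor of the cytokine TWEAK, which is the product of Tnfrsf12a, and were littermates of the MRL/lpr mice from a backcrossed line. MRL/MpJ mice (MRL/+), without the lpr mutation, were the controls and came from another breeder, so that colony and genotype cannot be told apart in the comparisons with MRL/+.

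Class II molecules are pairs of an alpha and a beta chain that present peptides from endosomes to CD4+ T cells. Newly made pairs are held by the invariant chain until H2-DM exchanges its last fragment for a peptide, and transcription of the whole set depends on Ciita, which is induced by interferon gamma. In the brain these genes are known to be low in resting microglia and higher in activated microglia, in macrophages, dendritic cells and B cells at the borders of the tissue, and in infiltrating leukocytes.

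Of the 9 genes, 7 lie together on chromosome 17, where their probes run from 34232033 to 34453134 (mm9, as given by the array files). The promoters below are shown because Ciita acts on this set through the proteins bound at an X box and a Y box, which most of the chromosome 17 genes share. The RefSeq promoter table (GRCm38.p6, reference strain, 250 bases before to 50 after each start) held 7 promoters for 6 of the 9 genes. The letters TGATTGG, taken for the Y box and searched on both strands, were found in 5 of these 7 promoters, against 7.82% of all 32851. The letters AACNNATG, taken as the core of the X box, were found in 3 of the 7, against 8.86% of all. The 2 motifs did not overlap. In the 65 bases printed for each gene, 5′ to 3′ along the gene, capitals mark these letters.
H2-Oa, chr17:34092289-34092353, plus strand: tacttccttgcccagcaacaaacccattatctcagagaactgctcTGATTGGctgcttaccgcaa
H2-DMb1, chr17:34153083-34153147, plus strand: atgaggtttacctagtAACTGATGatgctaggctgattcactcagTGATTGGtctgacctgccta
H2-Ob, chr17:34238801-34238865, plus strand: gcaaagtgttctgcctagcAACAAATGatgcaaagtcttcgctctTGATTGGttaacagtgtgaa
H2-Aa, chr17:34287854-34287918, minus strand: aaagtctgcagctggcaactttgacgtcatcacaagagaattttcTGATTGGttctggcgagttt
H2-Eb1, chr17:34305761-34305825, plus strand: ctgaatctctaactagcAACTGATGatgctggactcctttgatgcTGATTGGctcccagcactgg
The Y box letters began 45 to 63 bases before the start of transcription in all 5, and the X box letters of H2-DMb1, H2-Ob and H2-Eb1 began 26 to 29 bases before those of the Y box. Neither was found in the 2 promoters of H2-DMa. A match is a description of these letters and not of binding.

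Signals are foreground intensities corrected for background and divided by the median of the channel, so a signal of 1 equals the median retained spot of that mouse. Each of the 6 arrays held 2 mice of 1 group, with Cy3 on the odd and Cy5 on the even replicate numbers, and both arrays of a group shared a slide, and this leaves slide confounded with group. The Cy5 channels of both MRL/+ arrays stood apart, with 35.0% and 21.2% of spots well above background by the scanner software, against at least 56.6% in every other channel, and their dark control spots, which carry no mouse sequence, were at a signal of 0.662 and 0.823, against 0.338 or less elsewhere. Bright patches were present on both MRL/lpr arrays only: 3.67% and 2.55% of their spots had neighbours that were over 2-fold brighter, in both channels, than the same spots on all 6 arrays. The targeted gene Tnfrsf12a had signals of 0.604 to 0.777 in Fn14ko, 1.39 to 1.90 in MRL/lpr and 0.943 to 1.28 in MRL/+, with a log2 difference of 1.27 between MRL/lpr and Fn14ko (limma adjusted p = 0.00287) and of -0.67 between Fn14ko and MRL/+ (limma adjusted p = 0.104). Whether its probe lies inside the deleted part is not known here. The probe lies on chromosome 17 (23812746 to 23812805 in mm9), 10.4 Mb from the nearest class II probe, and which alleles of the class II region the Fn14ko mice carried was not tested. The cortical neuron markers Slc17a7, Neurod6, Tbr1, Fezf2 and Gad1 all passed the filter, and Slc17a7, the vesicular glutamate transporter of cortical neurons, had signals of 8.71 to 14.6 in MRL/lpr, 12.7 to 20.3 in Fn14ko and 20.5 to 30.5 in MRL/+. Against MRL/+, MRL/lpr had Slc17a7 at -1.08, Neurod6 at -1.70 and Tbr1 at 1.53 on the log2 scale (limma adjusted p = 0.00926, 0.0132 and 0.00432), and Neurod6 was -2.11 in MRL/lpr against Fn14ko (limma adjusted p = 0.00766), so neuron markers also differed between the groups and their part in the class II differences was not tested. With few arrays, the precision of all values is limited.

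**Figure D1:**
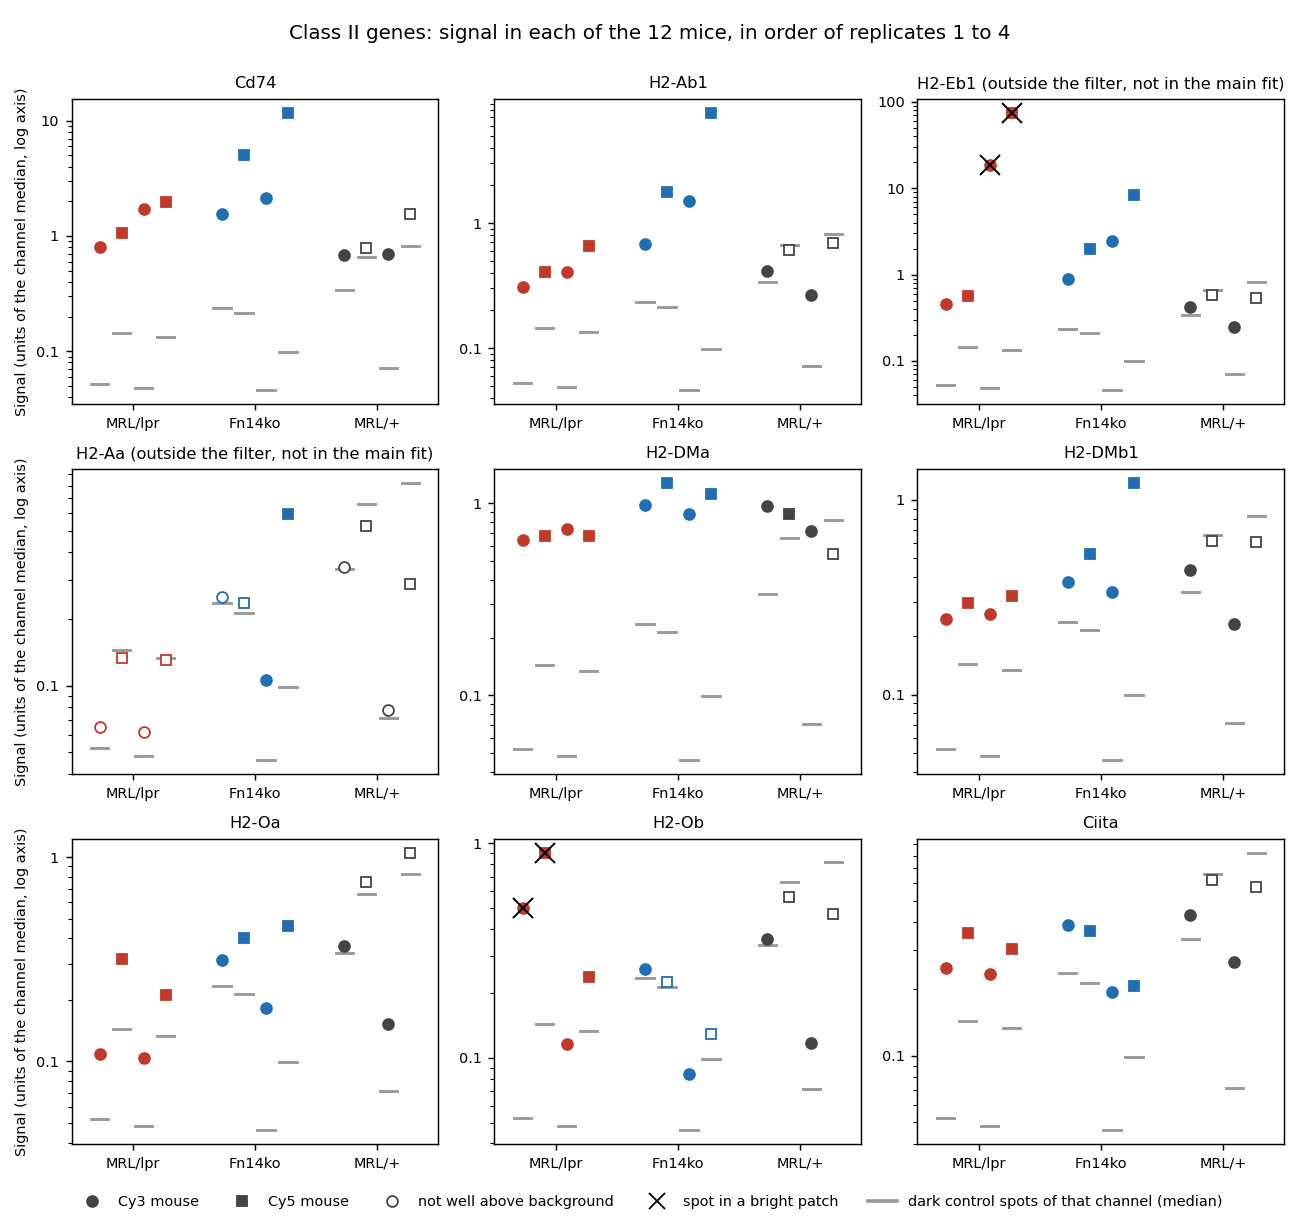
Signal of each class II gene in each mouse, on a log axis in units of the channel median, with replicates 1 to 4 from left to right in each group. Circles are Cy3 and squares Cy5 mice, open symbols were not well above background, crosses lie in a bright patch and grey bars give the dark control spots of that channel. Cd74, H2-Ab1, H2-Eb1 and H2-DMb1 peak in Fn14ko replicate 4 outside the patches, and the open squares of MRL/+ lie near the grey bars.

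Cd74 and H2-Ab1 had their highest signals in Fn14ko. Cd74, the invariant chain (chromosome 18, probe from 60972075 to 60972132), had signals of 1.55, 5.08, 2.14 and 11.7 in Fn14ko replicates 1 to 4. They were 0.802, 1.07, 1.72 and 1.97 in MRL/lpr and 0.678, 0.784, 0.699 and 1.54 in MRL/+. All Fn14ko mice were above all MRL/+ mice, but only just, since the lowest Fn14ko signal was 1.551 and the highest MRL/+ signal 1.542. Fn14ko replicate 1 lay within the MRL/lpr range, and the other 3 Fn14ko mice were above every mouse of both other groups. On the log2 scale Cd74 was 2.11 higher in Fn14ko than in MRL/+ (SE 0.50, 95% confidence interval 1.03 to 3.19, a 4.31-fold ratio of geometric means), which missed the threshold in limma (adjusted p = 0.0646 over 17302 genes, exact permutation p = 0.0286, the smallest that 70 divisions allow). The permutations, here and below, ignored array and dye and describe only the order of the mice. Between MRL/lpr and Fn14ko the difference was -1.52 (SE 0.50, limma adjusted p = 0.113, exact permutation p = 0.114), and between MRL/lpr and MRL/+ it was 0.59 (SE 0.50, limma adjusted p = 0.40). In bulk tissue, fewer cells that express a gene and less RNA in each cell cannot be told apart.

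H2-Ab1, the beta chain of the classical molecule I-A, was read by a pair of probes that overlap (chromosome 17, 34406296 to 34406355 and 34406305 to 34406363). Their mean signal was 0.680, 1.76, 1.499 and 7.63 in Fn14ko. It was 0.307, 0.406, 0.402 and 0.651 in MRL/lpr, and 0.413, 0.607, 0.265 and 0.694 in MRL/+. Every Fn14ko mouse was above every MRL/lpr mouse, the closest pair being 0.680 and 0.651, and Fn14ko replicate 1 fell just below the highest MRL/+ mouse. H2-Ab1 was lower in MRL/lpr than in Fn14ko by -2.18 on the log2 scale (SE 0.48, 95% confidence interval -3.22 to -1.14, limma adjusted p = 0.0205, exact permutation p = 0.0286), which is a 4.53-fold ratio. The probe from 34406296 alone gave -2.43 and the other -1.97, both past the threshold in the fit of single probes (limma adjusted p = 0.0114 and 0.0419). The fold did not rest on Fn14ko replicate 4, without which the difference was -1.69 (limma adjusted p = 0.0129). Leaving out Fn14ko replicate 2, MRL/+ replicate 3 or MRL/+ replicate 4 ended the call, at limma adjusted p of 0.0527, 0.0646 and 0.0868, although the last 2 mice enter this comparison only through the spread and the dye term. Against MRL/+, H2-Ab1 was 2.05 higher in Fn14ko (SE 0.48, 95% confidence interval 1.015 to 3.09, limma adjusted p = 0.063, exact permutation p = 0.0571). Between MRL/lpr and MRL/+ the difference was -0.12 (95% confidence interval -1.16 to 0.91, limma adjusted p = 0.867), and its sign changed with the background correction.

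In MRL/+ both of these genes were well above background in the Cy3 mice only. The Cy5 signals of H2-Ab1 in MRL/+ (0.607 and 0.694) were below the dark controls of the same channels (0.662 and 0.823), and the spots were not well above background. Within Cy3, the Fn14ko mice exceeded the MRL/+ mice by 1.41 log2 units for Cd74 and 1.61 for H2-Ab1 (2 mice against 2). Within Cy5 the differences were 2.81 and 2.497, against MRL/+ spots that were not well above background. MRL/lpr minus Fn14ko was -0.63 for Cd74 and -1.52 for H2-Ab1 within Cy3, and -2.41 and -2.83 within Cy5, so MRL/lpr was below Fn14ko within either dye. With both MRL/+ Cy5 mice left out, an alternative chosen after the data were seen, Cd74 was 1.85 and H2-Ab1 1.94 higher in Fn14ko than in MRL/+ (limma adjusted p = 0.478 and 0.437), and H2-Ab1 in MRL/lpr against Fn14ko stayed at -2.18 but missed the threshold (limma adjusted p = 0.0732).

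H2-Eb1 encodes the beta chain of the other classical molecule, I-E. Its single probe (chromosome 17, 34453075 to 34453134) fell outside the filter because the scanner software marked the spot as uneven on the MRL/lpr array of replicates 3 and 4. That spot lay in a bright patch: its signals there were 18.4 and 74.4, and the neighbouring spots were 17.6- and 48.8-fold brighter than the same spots on all 6 arrays. On the other arrays the spot carried no mark. Its signals were 0.891, 1.98, 2.43 and 8.32 in Fn14ko, 0.458 and 0.571 in MRL/lpr replicates 1 and 2, and 0.419, 0.586, 0.248 and 0.536 in MRL/+. The Fn14ko mice were above the 2 remaining MRL/lpr mice and above all MRL/+ mice. In MRL/+ the spot was well above background in 2 of 4 mice, both Cy3. The Cy5 signals (0.586 and 0.536) were below the dark controls of their channels (0.662 and 0.823), which limits every comparison of H2-Eb1 with MRL/+. H2-Eb1 was not in the fit that left those mice out. In a fit of single probes with marked and patched spots removed on their own array, chosen after the data were seen, H2-Eb1 was 2.52 higher in Fn14ko than in MRL/+ (SE 0.44, 95% confidence interval 1.57 to 3.47, limma adjusted p = 0.0122, exact permutation p = 0.0286). MRL/lpr minus Fn14ko was -2.20 on the log2 scale (SE 0.53, limma adjusted p = 0.0265, exact permutation p = 0.133 over 15 divisions), with both MRL/lpr mice from 1 array. With the marked spot kept, that comparison turned to 0.81 in favour of MRL/lpr (limma adjusted p = 0.809). The same cleaned fit put Cd74 and both H2-Ab1 probes past the threshold in Fn14ko against MRL/+ (limma adjusted p = 0.0279, 0.0267 and 0.0284), where it called 2.45% of 22646 probes, and kept both H2-Ab1 probes past it in MRL/lpr against Fn14ko (limma adjusted p = 0.00399 and 0.0202), where it called 4.96%.

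**Figure D2:**
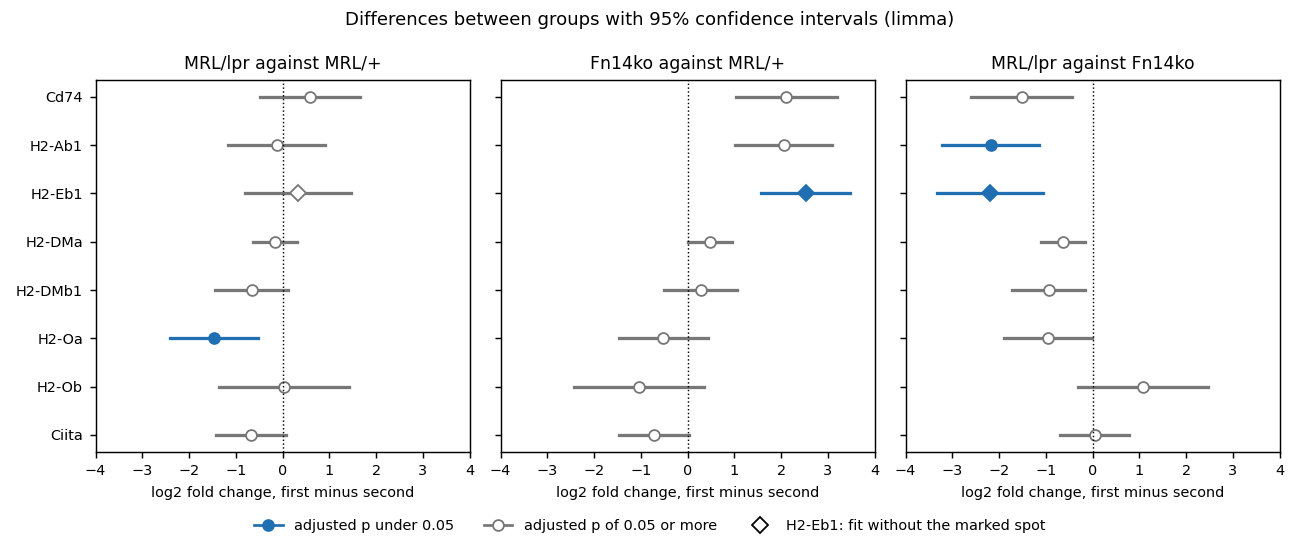
Log2 fold changes of the class II genes with 95% confidence intervals from limma, one panel per comparison, first group minus second. Circles come from the fit of 17302 genes and diamonds (H2-Eb1) from the fit without the marked spot, and filled symbols have an adjusted p under 0.05. H2-Ab1 and H2-Eb1 lie near -2.2 in MRL/lpr against Fn14ko, while the intervals of H2-Ob and Ciita hold 0 in every panel.

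H2-Aa, the alpha chain that pairs with H2-Ab1, was too dim for the filter. Its probe (chromosome 17, 34421285 to 34421344) was well above background in 2 of 4 Fn14ko mice and in no mouse of the other groups. The detected mice were Fn14ko replicates 3 and 4, whose raw foregrounds were 117.0 and 559.6 over local backgrounds of 31 and 29, and in the other 10 mice the foreground was 40.2 to 110.7. Its signals were 0.251, 0.236, 0.106 and 0.596 in Fn14ko, 0.0647, 0.133, 0.0616 and 0.130 in MRL/lpr, and 0.342, 0.527, 0.0773 and 0.287 in MRL/+. Fn14ko and MRL/+ overlapped and had means of 0.297 and 0.308, so on this scale Fn14ko was not above MRL/+. The MRL/+ signals lay near or below the dark controls of their channels (0.338, 0.662, 0.0713 and 0.823). Those of Fn14ko replicates 1 and 2 lay near theirs (0.235 and 0.213). The means therefore largely read the floor of the channels and cannot rank these groups. Under loess within arrays and quantile scaling between them, the Fn14ko mean was 1.52-fold the bound in MRL/lpr, and 1.18-fold that in MRL/+ under this scaling alone. Each such bound takes, for each mouse, the dimmest probe well above background or the probe itself, whichever is brighter, and is open to dye bias. The Fn14ko mean took in the mice that were not well above background, so these ratios are not sure lower limits. With no filter on dim spots, MRL/lpr minus Fn14ko was -1.57 and Fn14ko minus MRL/+ 0.70 for H2-Aa (limma adjusted p = 0.339 and 0.559). How well the probes match the alleles of the k haplotype, which MRL mice carry, was not tested, so levels of different genes are not compared here.

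The peptide exchange factor H2-DM was lower in MRL/lpr than in Fn14ko in both chains by the order of the mice, and neither chain passed the threshold. H2-DMa had signals of 0.980, 1.28, 0.885 and 1.12 in Fn14ko, 0.644, 0.675, 0.737 and 0.674 in MRL/lpr, and 0.972, 0.885, 0.718 and 0.544 in MRL/+. MRL/lpr and Fn14ko did not overlap, and MRL/+ lay across both. The difference between MRL/lpr and Fn14ko was -0.63 (SE 0.22, limma adjusted p = 0.128, exact permutation p = 0.0286). H2-DMb1, by its probe from 34297109, had signals of 0.377, 0.526, 0.337 and 1.22 in Fn14ko, 0.244, 0.296, 0.261 and 0.321 in MRL/lpr, and 0.436, 0.617, 0.231 and 0.608 in MRL/+. Here too MRL/lpr lay below every Fn14ko mouse, by -0.94 (SE 0.36, limma adjusted p = 0.182, exact permutation p = 0.0286). Against MRL/+, H2-DMa was 0.47 (limma adjusted p = 0.226) and H2-DMb1 0.28 (limma adjusted p = 0.624) higher in Fn14ko. In MRL/+, H2-DMa was well above background in 3 of 4 mice and H2-DMb1 in 2 of 4. The undetected signals (0.544 for H2-DMa, 0.617 and 0.608 for H2-DMb1) lay below the dark controls of their Cy5 channels, which limits the comparisons with MRL/+. A second H2-DMb1 probe, from 34290109, was well above background in 0 of 12 mice.

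H2-Oa and H2-Ob encode the inhibitor of H2-DM, which is known from B cells and some dendritic cells. H2-Oa had signals of 0.315, 0.403, 0.182 and 0.463 in Fn14ko, 0.109, 0.318, 0.104 and 0.212 in MRL/lpr, and 0.369, 0.759, 0.152 and 1.05 in MRL/+. The 2 highest MRL/+ values were the Cy5 mice, in which the spot was not well above background and the dark controls were at 0.662 and 0.823. H2-Oa fell in MRL/lpr against MRL/+ by -1.47 on the log2 scale (SE 0.44, 95% confidence interval -2.42 to -0.52, limma adjusted p = 0.0423), with groups that overlapped (exact permutation p = 0.114). With both MRL/+ Cy5 mice left out the difference was -1.05 (limma adjusted p = 0.305). Without MRL/+ replicate 4 alone it was -1.12 (limma adjusted p = 0.222), which also missed the threshold. Leaving out any of the 4 MRL/lpr mice, Fn14ko replicates 2 or 3, or MRL/+ replicate 1 also ended this call (limma adjusted p = 0.0568 to 0.0788). H2-Ob, by its probe from 34380481, had signals of 0.260, 0.225, 0.0845 and 0.129 in Fn14ko, 0.498, 0.903, 0.116 and 0.238 in MRL/lpr, and 0.358, 0.564, 0.118 and 0.468 in MRL/+. The pair of high MRL/lpr values were replicates 1 and 2, whose spot lay in a bright patch (neighbours 2.46- and 4.27-fold brighter). With that spot removed, H2-Ob in MRL/lpr against MRL/+ turned from 0.04 to -0.93 (limma adjusted p = 0.971 and 0.345), and against Fn14ko it moved from 1.07 to 0.11 (limma adjusted p = 0.411 and 0.974). Both other H2-Ob probes were too dim for the filter: the probe from 34377309 was well above background in 2 of 4 MRL/lpr mice and no other, and that from 34382790 in 2 MRL/lpr, 3 Fn14ko and 2 MRL/+ mice, with signals of 0.0948 to 0.573 over the 12 mice.

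Ciita, the transactivator on which the set depends, had its highest signals in the MRL/+ Cy5 mice, where it was not well above background. Its probe from 10491091 on chromosome 16 gave 0.388, 0.366, 0.194 and 0.206 in Fn14ko, 0.250, 0.360, 0.235 and 0.302 in MRL/lpr, and 0.433, 0.623, 0.264 and 0.577 in MRL/+. The groups overlapped in every comparison. Fn14ko and MRL/lpr differed by 0.04 (95% confidence interval -0.70 to 0.79, limma adjusted p = 0.968), and both were below MRL/+ without passing the threshold (limma adjusted p = 0.241 and 0.176), where the Cy5 values lay below the dark controls of their channels. A probe from 10492271 was well above background in 0 of 12 mice. The probe from 10526568 reached raw foregrounds of 4295 and 5190 in MRL/lpr replicates 1 and 2, inside a patch whose neighbours were 23.0- and 42.2-fold brighter, and 38.9 to 113.4 in the other 10 mice.

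**Figure D3:**
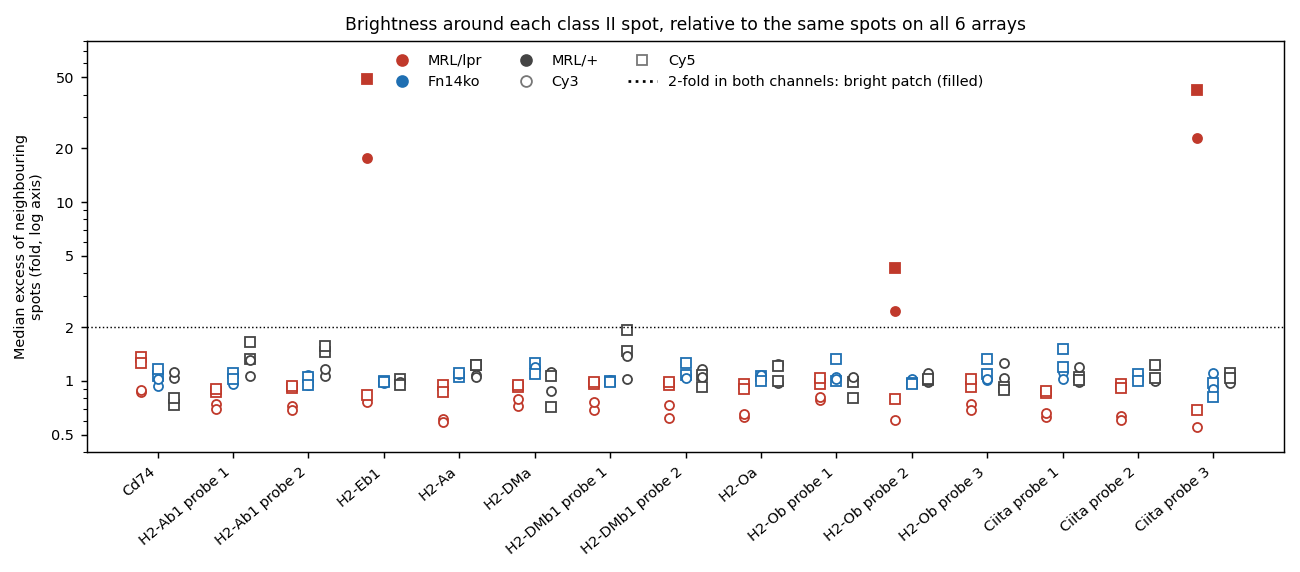
Median excess of the spots within 2 rows and 2 columns of each class II spot over the same spots on all 6 arrays, as a fold on a log axis, for every probe and mouse, with probes numbered along the gene. Filled symbols exceed 2-fold in both channels of the array, which is the definition of a bright patch used here. Filled symbols occur only for H2-Eb1, the second H2-Ob probe and the third Ciita probe, and only on MRL/lpr arrays.

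Of the 7 class II genes that passed the filter, 1 was called in MRL/lpr against MRL/+ (H2-Oa, lower), where limma called 14.4% of all 17302 genes (6.03% higher and 8.37% lower). An unadjusted limma p under 0.05 was found for 1 of 7, against 34.7% of all genes. The groups overlapped for all 7, where 23.9% of genes had groups that did not. In Fn14ko against MRL/+ 0 of 7 were called, against 0.954% of all genes (0.237% higher and 0.717% lower). There, 3 of 7 (Cd74, H2-Ab1, H2-DMa) had an unadjusted limma p under 0.05, against 21.9% of all genes, and 1 of 7 (Cd74) had groups that did not overlap, against 13.5%. Between MRL/lpr and Fn14ko 1 of 7 was called (H2-Ab1, lower in MRL/lpr), against 4.57% (2.58% higher and 1.99% lower). Here 5 of 7 had an unadjusted p under 0.05 against 18.6%, and 3 of 7 (H2-Ab1, H2-DMa, H2-DMb1) had groups that did not overlap, against 20.3%. The median log2 difference of the 7 genes was -0.94 in that comparison, against -0.07 over all genes, 0.28 against -0.10 in Fn14ko against MRL/+, and -0.16 against -0.10 in MRL/lpr against MRL/+. The comparisons share their samples, and H2-Aa and H2-Eb1 are not among these 7.

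Cd74, H2-Ab1 and H2-DMb1 varied more between Fn14ko mice than most genes did. The coefficient of variation over the 4 Fn14ko mice was 110.3% for H2-Ab1, 90.9% for Cd74 and 66.9% for H2-DMb1, larger than in 99.9%, 99.8% and 99.5% of the 17302 genes, whose median was 17.9%. H2-DMa, at 16.1%, was below that median. In MRL/lpr the values were 33.3% for H2-Ab1, 39.4% for Cd74 and 12.4% for H2-DMb1, with a median over all genes of 15.5%. Replicate 4 was the highest Fn14ko mouse for Cd74, H2-Ab1, H2-Eb1, H2-Aa, H2-DMb1 and H2-Oa, but not for H2-DMa, H2-Ob or Ciita. Since dye differs between neighbouring replicates, mice were compared within a dye: replicate 4 exceeded replicate 2 by 2.30-fold for Cd74, 4.33-fold for H2-Ab1, 4.21-fold for H2-Eb1 and 2.32-fold for H2-DMb1, and replicate 3 exceeded replicate 1 by 1.38-, 2.20- and 2.72-fold for the first 3 and not for H2-DMb1, at 0.895-fold. Replicates 3 and 4 shared an array, so mouse and array cannot be told apart here.

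Cd74 was taken as the reference because its spots had the highest mean signal of the class II genes, which is a rule of choice and no statement on RNA levels. The genes whose signals followed Cd74 most closely over the 12 mice were 2 immunoglobulin constant regions, a sulfate transporter and a pair of interferon-inducible genes. Pearson's r with Cd74 on the log2 scale was 0.935 for immunoglobulin heavy constant alpha (ENSMUST00000178282.2), 0.932 for immunoglobulin kappa constant (ENSMUST00000103410.2), 0.919 for Slc13a4, 0.904 for Ifi27 and 0.902 for Irf1. Spearman's rho was 0.909, 0.909, 0.881, 0.671 and 0.846 in the same order. These are the 5 highest of all other genes, given as a description, and the mice share arrays, dyes and groups. Immunoglobulin kappa constant had signals of 3.29, 35.1, 7.32 and 62.9 in Fn14ko, 0.738 to 1.64 in MRL/lpr and 0.285 to 0.586 in MRL/+, in the same order of Fn14ko mice as Cd74. It was 5.14 log2 units higher in Fn14ko than in MRL/+ (limma adjusted p = 0.00601), and MRL/lpr was below Fn14ko by -3.57 (limma adjusted p = 0.00829). Irf1, a factor of the interferon response that induces Ciita, had signals of 1.02, 1.66, 1.30 and 3.24 in Fn14ko, 1.17 to 1.28 in MRL/lpr and 0.872 to 0.955 in MRL/+. It was 0.84 higher in Fn14ko than in MRL/+ without passing the threshold (SE 0.30, limma adjusted p = 0.162). These groups did not overlap for Irf1, as for 13.5% of all genes, and Irf1 was picked because it followed Cd74. MRL/lpr and MRL/+ did not overlap for Irf1 either, as for 23.9% of all genes.

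**Figure D4:**
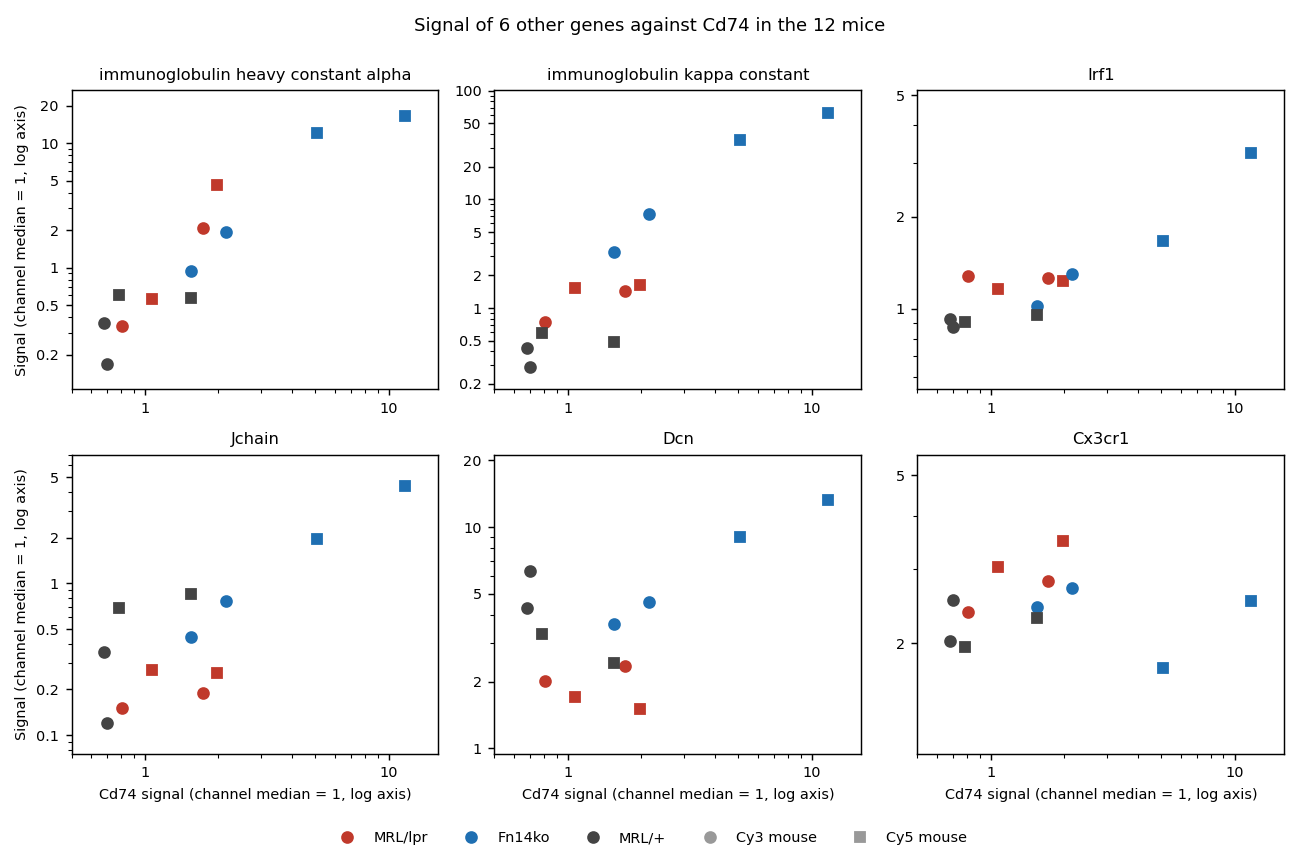
Signals of 6 other genes against Cd74 in the 12 mice, on log axes in units of the channel median, coloured by group, with circles for Cy3 and squares for Cy5. The pair of Fn14ko Cy5 mice, at Cd74 signals of 5.08 and 11.7, are also the highest for both immunoglobulin genes, Irf1, Jchain and Dcn, and not for the microglial gene Cx3cr1.

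The order of the Fn14ko mice seen for Cd74 and H2-Ab1 (4 > 2 > 3 > 1) was shared by Jchain of the plasma cell list and by 4 of 6 meningeal markers (Dcn, Col1a2, Slc6a13, Aldh1a2). It puts both Cy5 mice above both Cy3 mice, and how many of all genes share it was not counted. H2-Eb1 (4 > 3 > 2 > 1) and H2-DMb1 (4 > 2 > 1 > 3) had other orders. Of the plasma cell list (Jchain, Sdc1, Tnfrsf17, Pou2af1), 2 of 4 passed the filter, with summed signals of 0.709, 2.23, 0.862 and 4.66 in Fn14ko, 0.286 to 0.480 in MRL/lpr and 0.243 to 1.496 in MRL/+. The Fn14ko sums were mostly Jchain, since Sdc1, the other gene past the filter, was 0.266, 0.271, 0.0947 and 0.246 in Fn14ko and was not highest in replicate 4. Jchain, the chain that joins secreted IgA and IgM, was lower in MRL/lpr than in Fn14ko by -2.64 (limma adjusted p = 0.0105). The meninges list (Dcn, Lum, Col1a1, Col1a2, Slc6a13, Aldh1a2), all 6 past the filter, summed to 6.83, 17.7, 9.24 and 27.7 in Fn14ko, again in the order of Cd74, and to 6.97 to 9.66 in the other mice, with 0 of 6 called in any comparison. The choroid plexus list, with 6 of 7 past the filter, summed to 6.67 to 99.2 in MRL/lpr, 13.4 to 180.9 in Fn14ko and 17.01 to 263.5 in MRL/+. The sum was mostly Ttr and was highest in MRL/+ replicate 4 (Ttr 249.1), where Cd74 was 1.54. Folr1, Kl, Clic6, Kcnj13 and Otx2 were instead highest in Fn14ko replicate 4 (4.17, 6.91, 7.19, 1.74 and 1.45), where Cd74 was also highest (11.7). Clic6 of that list was lower in MRL/lpr than in MRL/+ (-2.51, limma adjusted p = 0.0486) and than in Fn14ko (-2.96, limma adjusted p = 0.0494). The microglia list, all 8 past the filter, had sums of 36.7 to 47.4 in Fn14ko, 34.1 to 52.5 in MRL/lpr and 36.2 to 46.4 in MRL/+, and only Aif1 was called, 1.17 higher in MRL/lpr than in MRL/+ (limma adjusted p = 0.0271). Border macrophages (4 of 6 past the filter) summed to 0.803 to 2.27 in Fn14ko, 1.24 to 2.94 in MRL/lpr and 0.785 to 2.27 in MRL/+. Of the defining B cell markers, Ms4a1 and Pax5 were well above background in 0 of 12 mice. The dendritic cell list, with 2 of 7 past the filter, summed to 0.641 to 1.35 over all mice with 0 called, and the T cell list, with 4 of 8, to 60.9 to 164.6 with 0 called. The T cell sum was mostly Thy1 (54.0 to 156.2), with Cd3e at 0.409 to 0.965 and Lck at 0.261 to 0.746. Outside the filter, Cd3d was well above background in 3 Fn14ko, 1 MRL/lpr and 0 MRL/+ mice, and Cd3g in none. Cd3d signals reached 0.394 in Fn14ko, in replicate 4. The highest MRL/+ signal, 0.630 in replicate 2, was not well above background and lay below the dark controls of its channel (0.662). The B cell list, with 2 of 7, had 0 called, and its sums of 2.20 and 5.86 in MRL/lpr replicates 1 and 2 held a Cr2 spot in a bright patch, against 0.362 to 1.15 elsewhere. Blood sums were 91.5 to 230.3 in MRL/lpr, 33.0 to 95.4 in Fn14ko and 24.8 to 46.9 in MRL/+, and vessel endothelium sums were 23.2 to 24.8, 16.2 to 23.9 and 10.5 to 14.9. Of these lists, Hba-a1 of 4 blood genes was called higher in MRL/lpr than in MRL/+ (2.37, limma adjusted p = 0.00456), as were 3 of 6 endothelial genes (Flt1, Ly6c1, Slco1a4). In Fn14ko against MRL/+, Ly6c1 and Slco1a4 were called higher (1.49 and 0.85, limma adjusted p = 0.0393 and 0.0483). Over all genes, limma called 14.4% in MRL/lpr against MRL/+ (6.03% higher), 0.954% in Fn14ko against MRL/+ (0.237% higher) and 4.57% in MRL/lpr against Fn14ko. At such shares, 0 calls in lists of 8 genes or fewer say little on a lack of change. The part of these cell types in the class II differences was not tested.

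Other genes of class II presentation were taken from a list of 32 on the array, of which 26 passed the filter. Between MRL/lpr and MRL/+ 0 of 26 were higher and 2 were lower, against 14.4% of all genes called. In Fn14ko against MRL/+ 0 of 26 were called, against 0.954%, with 7 of 26 at an unadjusted limma p under 0.05 against 21.9%. The comparison of MRL/lpr with Fn14ko had 0 higher and 1 lower, against 4.57%. The calls were Icosl, a costimulatory ligand on presenting cells, and Ifngr2, a chain of the interferon gamma receptor. Icosl had signals of 0.174, 0.299, 0.235 and 0.236 in MRL/lpr, 0.790, 0.927, 0.627 and 0.934 in Fn14ko and 0.886, 0.872, 1.02 and 0.943 in MRL/+. MRL/lpr lay below every other mouse, by -1.999 against MRL/+ (SE 0.22, limma adjusted p = 0.000349) and by -1.80 against Fn14ko (SE 0.22, limma adjusted p = 0.000769). Ifngr2 was 1.98 to 2.73 in MRL/lpr, 2.96 to 4.59 in Fn14ko and 3.93 to 6.28 in MRL/+, with -1.16 between MRL/lpr and MRL/+ (SE 0.23, limma adjusted p = 0.00714). None of the 6 endosomal proteases and reductase genes, 2 turnover genes (Marchf1, Marchf8) or 7 transcription factors of class II promoters (Rfx5, Rfxap, Rfxank, Nfya, Nfyb, Nfyc, Creb1) that passed the filter was called by limma in any comparison, with 3, 3 and 1 of them at an unadjusted p under 0.05 in MRL/lpr against MRL/+, Fn14ko against MRL/+ and MRL/lpr against Fn14ko, where 34.7%, 21.9% and 18.6% of all genes were. H2-Ea, H2-Eb2, H2-DMb2, Ctse and Ifng were too dim for the filter.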

How the data were processed

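Cortex RNA of 12 mice was measured on 6 arrays of 2 colours, each with 2 mice of 1 group. The authors deposited scanner output of Agilent Feature Extraction (12.1.0.3 in the file headers), with foreground and local background intensity per spot and channel, not normalized. Of 43020 spots that are not controls, 1952 marked as uneven or outlier were left out, as were 17781 whose foreground did not reach 2 times their local background in every mouse. The rest were corrected by normexp (offset 50), divided by the median of their channel, averaged per gene and taken as log2. Groups came from the labels, and the labels name each sample as a mouse of its group. limma 3.58.1 (R 4.3.3) fitted all 3 groups with a dye term, the array as a random block and trended moderation, with Benjamini-Hochberg adjustment over 17302 genes and a threshold of 0.05. Exact two-sided permutation tests used all 70 divisions of 4 against 4 mice, which allow no p below 0.0286. They treated the mice as exchangeable and ignored array and dye, although each array held 2 mice of 1 group. Their p-values therefore describe the order of the mice and add no support beyond limma. The limma p-values measure the spread between these mice. Scripts were tested on simulated data. Tables and figures were made with Python 3.11.15, pandas 2.3.3, numpy 2.4.6, matplotlib 3.10.9 and scipy 1.17.1.

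Named were all 9 class II genes, the called and unfiltered genes of the antigen presentation list, Tnfrsf12a, the 5 genes most correlated with the class II gene of highest mean signal (Cd74), and defining markers of the lists (microglia, border macrophages, dendritic, B, plasma and T cells, choroid plexus, blood, vessel endothelium, meninges, cortex neurons). These genes and lists were chosen with earlier results of these data known. Alternatives changed the background correction, scaling, filters, marked spots, merging of probes, covariates and the mice in the fit. No column of another sample was in the files. Some genes of these lists are not reported here. Promoters came from RefSeq (GRCm38.p6), and probe positions (mm9) from the array files, and the builds were not mixed.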

Additional observations from a re-analysis of the deposited data

Results flagged for a closer look

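H2-Ab1 was flagged because its effect differed between groups: the difference of MRL/lpr from MRL/+ minus that of Fn14ko from MRL/+ was -2.18 on the log2 scale (limma adjusted p = 0.0205), which is the comparison of MRL/lpr with Fn14ko.

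Probes outside the filter were flagged where they were well above background in a group and in no MRL/+ mouse. The Ciita probe from 10526568 reached a signal of 10.6 in MRL/lpr, with both detected mice inside a bright patch. The H2-Aa probe from 34421285 reached 0.596 in Fn14ko, in replicate 4. The H2-Ob probe from 34377309 reached 0.713 in MRL/lpr, where it was detected in replicates 3 and 4 (0.396 and 0.713) and not in replicates 1 and 2 (0.0597 and 0.136), outside the bright patches.

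On the linear scale of the printed signals, replicate 4 stood far above the others of its group for Cd74 in MRL/+ and for H2-Ab1 in Fn14ko, where its gap to the nearest mouse was 0.878 and 0.844 of the group's range. On the log2 scale used for the tests, the gaps were 0.823 and 0.606 and no mouse stood apart in any of the 27 groups of 4 by Dixon's test. Chance alone sets apart about 1 in 20 groups, and this was looked for on the linear scale after the data were seen.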

How the results depend on the processing

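Of the values for single class II genes, 240 kept their direction and side of the threshold under settings other than leaving out a mouse, 23 gained and 13 lost a call, and 21 turned. The causes were not tested. For MRL/lpr against MRL/+, 1 class II gene was called, and 0 with the processed signal, loess and quantile scaling, no filter on dim spots, no dye term, only the 2 groups compared, Cy3 mice only, or (chosen after seeing the data) both MRL/+ Cy5 mice left out. In Fn14ko against MRL/+, 0 were called, and 2 with background subtraction, the processed signal, loess, the 75th percentile, no array block or only the 2 groups compared, and 3 with marked and patched spots removed on their own array (chosen after seeing the data). In MRL/lpr against Fn14ko, 1 was called, and 4 with background subtraction, 3 without the array block, 2 with the processed signal or the patched spots removed, and 0 with no filter on dim spots, no dye term, only the 2 groups compared, Cy3 mice only or the MRL/+ Cy5 mice left out. Leaving out each mouse gave 0 to 1, 0 to 2 and 0 to 2 called in these 3 comparisons. No class II gene was left when spots had to be well above background in all 12 mice.

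For the antigen presentation list, MRL/lpr against MRL/+ went from 2 calls to 4 (background subtraction, processed signal), 6 (no array block) and 0 (no filter on dim spots), with 2 to 9 when each mouse was left out. Fn14ko against MRL/+ went from 0 to 3 (background subtraction), 2 (all 12 mice well above background, no array block) and 1 (processed signal, loess, 75th percentile), with 0 to 6 when each mouse was left out. MRL/lpr against Fn14ko went from 1 to 2 (background subtraction, processed signal, loess) and 0 (no filter on dim spots), with 1 to 1 when each mouse was left out.

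The replicate numbers were not taken to pair the mice, since the labels give no pairing and only 8 of 12 same-numbered pairs, not all, had deviations correlated over 0.1 (-0.132 to 0.721). As a hint from the data, 7 of 12 mice correlated best with their own number. With the replicate block, 2 class II genes were called in Fn14ko against MRL/+, 2 in MRL/lpr against Fn14ko, and 8 of the list in MRL/lpr against MRL/+. Over all genes the block gave 5597, 1209 and 1624 calls in place of 2492, 165 and 790.

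Over all genes, background subtraction gave 5140, 2837 and 2849 calls, loess 4708, 1548 and 2303, no array block 5189, 1881 and 1782, the processed signal 3062, 1012 and 1889, the MRL/+ Cy5 mice left out 871, 6 and 538, and no filter on dim spots 22, 0 and 32. The 75th percentile moved the median log2 difference of all genes to -0.34 and -0.35 in the comparisons with MRL/+, from -0.10 in both.

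Except for H2-Eb1, signs turned only for differences that had not passed the threshold. Between MRL/lpr and MRL/+, H2-Ab1 turned to 0.34 (background subtraction), 1.29 (processed signal), 0.46 (loess), 0.47 (no filter on dim spots), 0.11 (single probes), 0.088 (Cy3 mice only) and 0.16 (patched spots removed), and ranged from -0.29 to 0.11 when each mouse was left out. H2-DMa turned to 0.44 (no filter on dim spots). H2-DMb1 turned to 0.47 (processed signal) and 0.00047 (loess). H2-Ob turned to -0.20 (75th percentile) and -0.93 (patched spots removed), and ranged from -0.33 to 0.33 when each mouse was left out. Ciita turned to 0.64 (processed signal) and 1.37 (no filter on dim spots). In Fn14ko against MRL/+, H2-Oa turned to 0.31 (processed signal), 0.01427 (loess), 0.21 (no filter on dim spots) and 0.01444 (Cy3 mice only), and Ciita to 0.21 (processed signal). H2-DMb1 ranged from -0.025 to 0.46 when each mouse was left out. Between MRL/lpr and Fn14ko, Ciita turned to -0.18 (Cy3 mice only) and ranged from -0.15 to 0.27 when each mouse was left out, and H2-Eb1 turned to 0.81 with marked spots kept.

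The dim MRL/+ Cy5 channels limit levels read in those mice.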

Other observations

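Among the dendritic cell markers outside the filter, Xcr1 and Clec9a were well above background in 4 of 4 MRL/lpr mice and 0 of the 8 others, and their spots lay in no bright patch. Xcr1 had signals of 0.197, 0.298, 0.189 and 0.281 in MRL/lpr, and Clec9a of 0.490, 0.586, 0.462 and 0.931. In MRL/+ Xcr1 had 0.337, 0.547, 0.0664 and 0.418 and Clec9a 0.339, 0.538, 0.0740 and 0.402, without being well above background, so 3 of 4 MRL/+ signals of Xcr1 were above every MRL/lpr mouse. The dendritic markers past the filter, Zbtb46 (-0.75) and Flt3 (0.10), did not pass the threshold in MRL/lpr against MRL/+ (limma adjusted p = 0.302 and 0.778). Of the other dendritic markers outside the filter, Itgax was well above background in 2 MRL/lpr and 1 Fn14ko mice, and Ccr7 in 2 MRL/lpr mice. A Cd209a probe was so in 2 MRL/lpr and 1 MRL/+ mice, and another in none. Blk of the B cell list was detected in 4 MRL/lpr mice and no other, like Xcr1 and Clec9a. How many of all probes show that pattern was not counted. These markers were picked out after their values were seen, and no test was made. H2-Ea was detected in MRL/lpr replicates 1 and 2 only, at 8.18 and 29.0, in a bright patch, and H2-Eb2 and H2-DMb2 were detected in 0 of 12 mice.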
